A study of Mus musculus with 4 samples.

Results

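The genes described here encode the coats, cargo receptors and tethering complexes that carry proteins between the endoplasmic reticulum (ER), the Golgi apparatus and endosomes, together with the ER translocon subunits and other genes that carry a Sec name. The naming rule, drawn up with earlier results of these data known, reads gene symbols and no measured value: it takes symbols that begin with Sec and a digit, the COPI subunit genes, Trappc, Cog, the subunits of the clathrin-type adaptor complexes AP-1 to AP-5 other than the alpha subunits, and Tmed. The rule found 92 of the 15733 protein-coding genes in the deposited table. Of these, 91 had enough counts to be tested. Sec24d, a cargo-binding COPII subunit, had 10, 8, 4 and 10 counts and was left out. A few members are no coat or tether at all, since the rule reads names: Sec1 is a fucosyltransferase gene, and the Sec14l genes encode lipid-binding proteins.

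The RNA came from mouse pachytene spermatocytes, the meiotic cells in which homologous chromosomes are synapsed and in which the largely unsynapsed X and Y are transcriptionally silent. Testicular single-cell suspensions were kept ex vivo for 12 h with 2.5 µM BMH21 or with its solvent DMSO (mock), after which the pachytene fraction was collected by flow sorting with a DNA-binding dye, Hoechst. BMH21 is a DNA-intercalating small molecule known for inhibiting RNA polymerase I. There were 2 libraries per group, called biological replicates in the labels, and no strain, genotype or age is given in the sources used here. The cells were treated as a mixed suspension outside the testis and sorted afterwards, so the agent also reached their neighbours.

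A secretory protein enters the ER through the Sec61 translocon and leaves it in vesicles coated by COPII, in which Sec23 and Sec24 form the inner layer and Sec13 and Sec31 the outer cage. COPI coats return escaped proteins and receptors from the Golgi, the p24 (Tmed) proteins select cargo for both coats, and the TRAPP and COG complexes catch incoming vesicles before fusion. Adaptor complexes then sort cargo at the Golgi and on endosomes. In male germ cells the Golgi is known for building the acrosome of the spermatid, and the first proacrosomal vesicles appear during meiosis.

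The libraries held 30964370 to 41548269 counts, and the members took 0.910% to 0.911% of them in mock and 0.906% to 0.907% in BMH21. Replicates were not the same library deposited again: the chi-square of their counts divided by its degrees of freedom was 3.23 for mock and 3.78 for BMH21. Pachytene markers summed to 5771 to 5790 CPM (counts scaled to library size) in mock and 5577 to 5639 CPM in BMH21. Of the 8, 2 rose and 4 fell at an adjusted p under 0.05 (edgeR). At that threshold 29.1% of all genes tested were called, and 38.4% of autosomal genes averaging 10 CPM or more. Spermatid markers (6 of 6 tested, 0 called) summed to 199 to 200.4 CPM and 208 to 210 CPM, and spermatogonial markers (2 of 4 tested fell) to 17.2 to 18.8 CPM and 13.4 to 16.1 CPM. Leydig markers (1 of 2 tested fell) summed to 9.13 to 9.54 CPM and 6.49 to 7.26 CPM, macrophage markers (0 of 3 called) to 6.10 to 6.88 CPM and 5.37 to 5.86 CPM, and the Sertoli (0 of 2) and the peritubular and endothelial markers (0 of 2) stayed at or under 2.48 CPM; no marker in the table was at 0 in all 4 libraries. Only 2 of the 6 Sertoli, 3 of the 5 Leydig and 5 of the 6 spermatogonial markers chosen were among the genes deposited, so their sums rest on few genes. The part of these shifts in marker sums in the results below was not tested. In bulk RNA fewer cells of a type and less RNA per cell cannot be told apart.

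Setting BMH21 against mock asks which of these mRNAs differed after the inhibitor. Members went both ways and no complex moved as a block. Of 91 tested, 20 rose and 16 fell at an adjusted p under 0.05 (quasi-likelihood test in edgeR, with Benjamini-Hochberg adjustment across 13793 genes). That is 39.6% called, against 29.1% of all genes. On the autosomes 34 of 89 members were called (38.2%, against 27.9% of autosomal genes), 18 higher (15.1% of autosomal genes) and 16 lower (12.8%). The members' median level was 52.8 CPM and that of all genes 13.9 CPM. Where the autosomal mean reached 10 CPM, 32 of 73 members (43.8%) and 38.4% of all 7465 genes were called, so the members' share lay near that background; 17 members were higher and 15 lower, against 21.1% and 17.4% of those genes. The groups did not overlap for 60 of 91 members (60.9% of all genes) and for 58 of 89 autosomal members (60.2% of autosomal genes). By direction, 22.0% of the members were higher and 17.6% lower, against 16.5% and 12.5% of all genes. Without mock replicate 2 the count of lower members was 9 in place of 16, and 16 of the 36 calls were lost with at least 1 library left out. The median log2 fold change was 0.00 over the members and -0.00 over all genes.

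Apart from 2 X-linked genes the changes were small. The 89 autosomal members ran from -0.64 (Ap5z1) to 0.71 (Sec61a2) on the log2 scale, and 0 of them changed by 2-fold, a size reached by 766 of 13427 autosomal genes but by only 54 of the 7465 with a mean of at least 10 CPM. At that level the median absolute log2 fold change was 0.117 over 73 members and 0.110 over all genes. The 18 autosomal members that rose had a median log2 fold change of 0.28 and the 16 that fell one of -0.24. For all autosomal genes called, the medians were 0.32 and -0.31. At this size the scaling matters: upper quartile scaling shifted every log2 fold change by a median of -0.05 and gave 14 higher and 20 lower members in place of 20 and 16, though no called member changed direction.

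**Figure D1:**
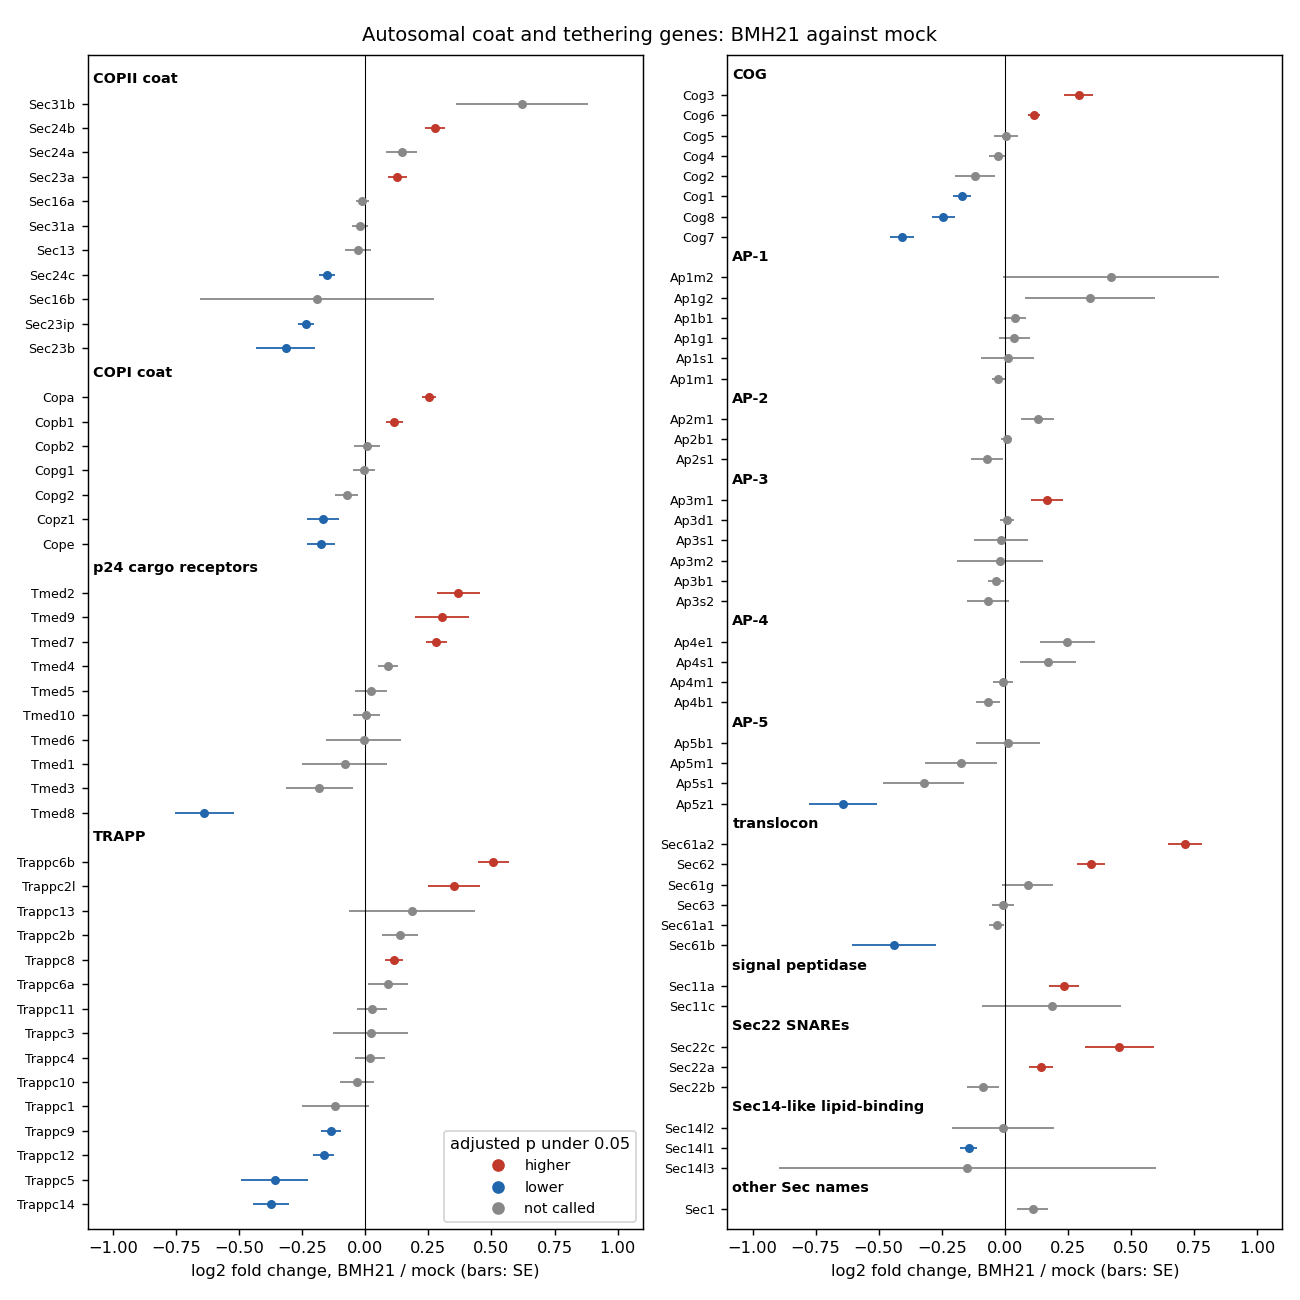
Log2 fold change of BMH21 over mock for the 89 autosomal members tested, grouped by complex and ordered by value within it. Points are edgeR estimates with their standard error, coloured by call at an adjusted p under 0.05. Each of the larger complexes (COPII, COPI, p24, TRAPP, COG) holds points on both sides of 0, and all points lie between -0.64 and 0.71.

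The X-linked members stood apart from the rest. Ap1s2 encodes a small (sigma) subunit of AP-1, the clathrin adaptor of the trans-Golgi network and recycling endosomes (ENSMUSG00000031367.16, chromosome X, 163909017 to 163933666 on GRCm38). It read 1.98 and 1.44 CPM in the mock libraries and 58.0 and 64.2 CPM in the BMH21 libraries, so the groups lay far apart. Its log2 fold change was 5.13 ± 0.12 (SE), with an edgeR adjusted p of 2.91e-46. For rises this large from few counts the SE is an approximation and too small. Trappc2 encodes sedlin, a core TRAPP subunit whose human gene is mutated in an X-linked skeletal dysplasia (ENSMUSG00000079317.11, chromosome X, 166440574 to 166453140). It had 2 counts in the mock libraries together and 296 in the BMH21 libraries. Scaled to library size that is a ratio of 154, with an exact 95% interval of 42.4 to 1281 that covers counting error only (edgeR adjusted p = 6.60e-18). Its fitted log2 change, 7.10, depends on the prior count and was 10.16 without mock replicate 1, which leaves a single mock library at 0, and 6.37 without mock replicate 2. Among all 343 X-linked genes tested, 73.2% rose, with a median log2 fold change of 4.19. Both members went the way of most X-linked genes tested. The filter keeps a gene with enough counts in 1 group alone, and Trappc2, with 2 and 0 mock counts, entered through BMH21. X-linked genes low in both groups were left out, so this share and median can in part be set by the filter.

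Autosomal relatives of both genes read otherwise. Ap1s1 is an autosomal sigma subunit gene of the same adaptor, and a further paralog, Ap1s3, was not analysed. Ap1s1 was at 16.4 and 16.2 CPM in mock and 15.9 and 16.8 CPM in BMH21 (log2 change 0.01 ± 0.11 SE, adjusted p = 0.961 by edgeR). Per kilobase of exon, Ap1s2 went from 5.08% and 3.79% of the sum of Ap1s1 and Ap1s2 in mock to 61.7% and 62.8% in BMH21. Trappc2b, an autosomal paralog of Trappc2 on chromosome 11, was at 36.6 and 36.8 CPM in mock and 41.2 and 39.6 CPM in BMH21 (0.14 ± 0.07 (SE), adjusted p = 0.162). On the per-kilobase scale Trappc2b was the most abundant TRAPP gene in mock and Trappc2 the least (36.8 against 0.00654 CPM per kb), and in BMH21 Trappc2 was still at 1.16 CPM per kb against 40.4. Trappc2 shares 15.8% of its 50-base words with a processed pseudogene, Gm13080, and 131 exonic bases overlap the X-linked gene Ofd1 on the other strand, which itself rose by 6.60 on the log2 scale, from 0.806 to 77.1 CPM. How many of the reads counted for Trappc2 came from these genes was not tested. Ap1s2 shares no such word with another annotated transcript.

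**Figure D2:**
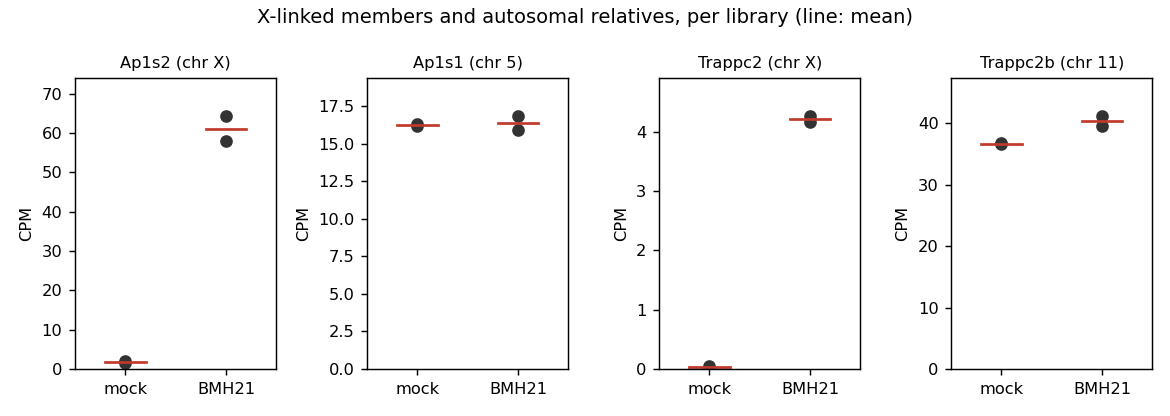
Expression in CPM per library of the X-linked members Ap1s2 and Trappc2 and of the autosomal Ap1s1 and Trappc2b, each on its own linear axis from 0. Points are libraries and lines are group means. On these axes both X-linked genes are near 0 in mock and higher in both BMH21 libraries, where Trappc2 reads only 4.17 and 4.26 CPM. The mock and BMH21 points of Ap1s1 overlap, and those of Trappc2b lie from 36.6 to 41.2 CPM.

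The promoters of the X-linked members are shown because these 2 genes carry the largest changes. They are RefSeq windows on GRCm38.p6 from 250 bases before to 50 after the annotated start, written 5′ to 3′ on the gene's strand. Capitals mark CCAAT boxes (CCAAT on either strand) and a palindrome made of TCTCG followed directly by CGAGA, a motif of many CpG-island promoters that was searched for after the Trappc2 sequence had been read.
Ap1s2, chrX:163908767-163909066, plus strand: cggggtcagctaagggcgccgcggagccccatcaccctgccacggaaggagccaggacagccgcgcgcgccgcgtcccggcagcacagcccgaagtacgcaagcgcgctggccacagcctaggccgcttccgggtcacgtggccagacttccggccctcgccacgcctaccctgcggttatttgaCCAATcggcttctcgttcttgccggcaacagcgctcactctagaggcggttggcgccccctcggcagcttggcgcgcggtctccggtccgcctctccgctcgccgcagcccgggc
Trappc2, chrX:166440505-166440804, plus strand: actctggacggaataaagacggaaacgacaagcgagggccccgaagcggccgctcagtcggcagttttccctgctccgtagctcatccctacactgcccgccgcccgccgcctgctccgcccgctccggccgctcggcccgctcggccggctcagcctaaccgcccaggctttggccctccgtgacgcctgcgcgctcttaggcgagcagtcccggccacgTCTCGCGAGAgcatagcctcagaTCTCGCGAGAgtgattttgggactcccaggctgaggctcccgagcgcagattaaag
The palindrome is in 2 of 85 member promoters (Trappc2 and Sec23ip), in 0.466% of all 32851 promoters and in 1.04% of the 13427 promoters of tested genes. CCAAT is in 38.8% of member promoters and 37.4% of all. The windows of Ap1s2 and Trappc2 hold 39 and 35 CpG dinucleotides, against a median of 20 over the member promoters and 19 over those of tested genes.

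COPII genes went both ways. Of 11 members tested, 2 rose (Sec24b, Sec23a) and 3 fell (Sec23ip, Sec24c, Sec23b). For comparison, 29.1% of all genes were called, and 38.4% of autosomal genes averaging 10 CPM or more. Sec24 proteins bind cargo signals. Sec24b, of the Sec24a and Sec24b subfamily, read 133 and 143 CPM in mock and 166 and 169 CPM in BMH21 (log2 change 0.28 ± 0.04 SE, adjusted p = 3.57e-08 by edgeR). Sec24c, of the other subfamily, read 279.7 and 276 CPM in mock and 242 and 258 CPM in BMH21 (-0.15 ± 0.03 (SE), adjusted p = 9.07e-05). In neither gene did the groups overlap, a separation seen for 60.9% of all genes tested. Sec24a was at 50.2 and 53.8 CPM and at 57.1 and 57.7 CPM (0.14 ± 0.06 (SE), adjusted p = 0.0710). The log2 ratio of Sec24b to Sec24c was -1.07 and -0.94 in the mock libraries and -0.54 and -0.61 in the BMH21 libraries.

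Sec23, the GTPase-activating subunit that binds Sar1, had 1 gene called in each direction. Sec23a, the abundant form, went from 146 and 139 CPM to 153 and 159 CPM (log2 fold change 0.13, edgeR adjusted p = 0.00868). Sec23b went from 15.4 and 14.9 CPM to 11.2 and 13.2 CPM (-0.32, adjusted p = 0.0339). Per kilobase Sec23b made up 7.50% and 7.62% of the pair in mock and 5.32% and 5.99% in BMH21. Both calls are weak: Sec23a was not called without mock replicate 2 (0.09), without BMH21 replicate 2 (0.10) or under upper quartile scaling (0.08), and Sec23b was not called without either mock library (-0.29 without replicate 1, -0.34 without replicate 2), without BMH21 replicate 1 (-0.20), in DESeq2 (-0.32) or with the replicate number as a block (-0.32).

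Sec23ip encodes p125, a Sec23-binding phospholipase-like protein of ER exit sites that is known from knockout mice to be needed for normal spermatid development. It read 296 and 297 CPM in mock and 250.3 and 253 CPM in BMH21, a clear separation (log2 change -0.24 ± 0.03 SE, adjusted p = 2.06e-09 by edgeR). The scaffold Sec16a, per kilobase the most abundant gene of the group (49.6 CPM per kb in mock), was at 464 and 448 CPM and at 449.8 and 455 CPM, overlapping values with a log2 fold change of -0.01. The outer cage gene Sec31a (-0.02) and Sec13 (-0.03) were not called. Sec31b, a weakly expressed form of the cage subunit, read 2.24 and 1.98 CPM in mock and 3.95 and 2.59 CPM in BMH21 (0.62 ± 0.26 (SE), adjusted p = 0.0679); without BMH21 replicate 2 it was called (0.90). It shares exons with a predicted gene on the same strand, so its counts are uncertain.

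In the COPI coat, with 7 member genes (the delta subunit gene Arcn1 falls outside the naming rule), Copa and Copb1 rose while Cope and Copz1 fell. Of autosomal genes averaging 10 CPM or more, as all 7 did, 38.4% were called. Copa, the large alpha subunit of the outer layer, read 286 and 276 CPM in mock and 337 and 334 CPM in BMH21 (log2 change 0.25 ± 0.03 SE, adjusted p = 1.10e-10 by edgeR). On the other strand 903 exonic bases overlap Ncstn and a predicted gene. Ncstn itself rose by 0.23, and while the library kit was stranded, the sources used here do not say whether the counting used strand. Copb1, the beta subunit of the inner layer, went from 183 and 188 CPM to 197 and 204 CPM (0.12, adjusted p = 0.00793). Cope, the epsilon subunit that stabilises the alpha subunit, went from 70.0 and 72.2 CPM to 61.9 and 63.8 CPM (-0.18, adjusted p = 0.0114). Copz1, a zeta subunit, went from 52.4 and 56.3 CPM to 48.3 CPM in both BMH21 libraries (-0.17, adjusted p = 0.0390).

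The smaller COPI calls hung on single libraries. Copb1 was not called without mock replicate 1 (0.10), without BMH21 replicate 2 (0.09) or under upper quartile scaling (0.07). Cope was not called without mock replicate 2 (-0.15) or BMH21 replicate 1 (-0.16), and Copz1 was not called without mock replicate 2 (-0.12), BMH21 replicate 1 (-0.17) or BMH21 replicate 2 (-0.17) or in DESeq2 (-0.17). Copa kept its call under every alternative run. Copb2, Copg1 and Copg2 had log2 fold changes of 0.01, -0.01 and -0.07, and none was called. The COPI subunits were the most even of the larger complexes in level, with 10.5 CPM per kb (Copg1) to 33.2 CPM per kb (Copb1) in mock, a 3.17-fold range.

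Several coat genes are known targets of the unfolded protein response, which raises the capacity of the secretory pathway when proteins misfold in the ER. Promoters of the members were therefore searched on both strands for the ER stress elements (CCAAT and CCACG with 9 bases between them, and ATTGG and CCACG with 1 base between them), for the unfolded protein response element TGACGTGG and for the cyclic AMP response element TGACGTCA. The last of these share the letters TGACGT but differ in their ends, and both ER stress elements contain CCAAT on one of the strands. A window was found for 79 of 92 genes, 85 in all. The ER stress elements were in 0 of these 85 (0.119% and 0.0365% of all promoters). TGACGTGG was in 6 of 85 (7.06%), against 0.676% of all promoters and 0.797% of those of tested genes, and TGACGTCA in 2 of 85 (2.35%), against 1.79% and 2.87%.

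Of the 6 genes with TGACGTGG, Copb1 and Sec23a rose, Ap5z1 fell, Copb2 and Sec16b were not called and Sec24d was not tested. These promoters are printed for the 4 expressed above 5 CPM. The calls of Copb1 and Sec23a were lost in some alternatives, as given above. The part of TGACGTGG in the fold changes was not tested. Capitals mark TGACGTGG or its reverse complement, and windows are as above.
Copb1, chr7:114254631-114254930, minus strand: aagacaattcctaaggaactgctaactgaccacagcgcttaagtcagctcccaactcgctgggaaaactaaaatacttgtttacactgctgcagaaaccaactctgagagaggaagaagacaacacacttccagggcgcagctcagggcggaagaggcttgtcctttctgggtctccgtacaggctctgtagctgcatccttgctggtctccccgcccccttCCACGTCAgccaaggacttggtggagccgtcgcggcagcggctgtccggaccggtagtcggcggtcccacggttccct
Sec23a, chr12:59011968-59012267, minus strand: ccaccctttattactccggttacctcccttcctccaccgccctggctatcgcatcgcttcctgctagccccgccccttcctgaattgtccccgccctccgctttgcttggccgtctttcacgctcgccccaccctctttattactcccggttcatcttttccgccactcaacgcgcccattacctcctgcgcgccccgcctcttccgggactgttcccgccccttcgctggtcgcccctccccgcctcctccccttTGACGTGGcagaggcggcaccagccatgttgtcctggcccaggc
Copb2, chr9:98563481-98563780, plus strand: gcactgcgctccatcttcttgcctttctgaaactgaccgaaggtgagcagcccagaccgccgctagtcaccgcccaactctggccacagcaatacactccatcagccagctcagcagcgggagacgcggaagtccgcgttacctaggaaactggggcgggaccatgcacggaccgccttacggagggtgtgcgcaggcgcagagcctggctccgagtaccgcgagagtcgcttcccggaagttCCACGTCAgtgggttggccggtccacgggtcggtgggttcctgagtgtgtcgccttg
Ap5z1, chr5:142463681-142463980, plus strand: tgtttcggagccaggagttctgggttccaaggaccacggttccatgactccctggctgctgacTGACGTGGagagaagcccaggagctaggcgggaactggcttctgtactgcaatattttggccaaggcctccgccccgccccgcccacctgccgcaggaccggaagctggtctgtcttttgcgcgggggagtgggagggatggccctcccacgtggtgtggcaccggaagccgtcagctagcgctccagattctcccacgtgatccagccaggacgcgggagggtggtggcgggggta
A match is a string in a window and not a binding site.

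Most Tmed genes encode p24 cargo receptors, which span the membrane of ER and Golgi vesicles and bind both coats. Of the 10 genes with this name, 3 rose and 1 fell. Called in either direction were 29.1% of all genes, and 38.4% of autosomal genes averaging 10 CPM or more. Tmed7 read 114 and 118 CPM in mock and 141 CPM in both BMH21 libraries (log2 change 0.28 ± 0.04 SE, adjusted p = 7.10e-08 by edgeR). Its annotated transcripts share 36.9% of their 50-base words with the neighbouring gene Ticam2, so the split of reads is uncertain. Tmed2, the beta-type p24, read 24.5 and 22.9 CPM and then 30.9 and 30.4 CPM (0.37 ± 0.09 (SE), adjusted p = 4.22e-04), and shares 25.3% of its words with a processed pseudogene, Gm10698. Tmed9, an alpha-type p24, went from 14.9 and 13.8 CPM to 17.6 and 17.9 CPM (0.30, adjusted p = 0.0248). Tmed9 was not called without mock replicate 2 (0.25), BMH21 replicate 1 (0.31) or BMH21 replicate 2 (0.29), in DESeq2 (0.30) or under upper quartile scaling (0.26).

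Tmed8 is less studied and was taken by its name, so it may not be a p24 cargo receptor. It was the Tmed gene that fell, from 16.4 and 17.6 CPM to 11.6 and 10.2 CPM (log2 change -0.64 ± 0.12 SE, adjusted p = 9.49e-06 by edgeR). It was also the least abundant per kilobase. Tmed10, the delta-type p24 that pairs with Tmed2 in other cells, was at 72.8 and 71.1 CPM in mock and 73.9 and 70.6 CPM in BMH21, with overlapping groups (0.00). Tmed4, the most abundant per kilobase, read 139 CPM in both mock libraries and 149 and 147 CPM in BMH21 (0.09, adjusted p = 0.0777). The other 4 uncalled genes lay between -0.18 and 0.02.

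TRAPP is a family of tethers built on a shared core, with added subunits that make TRAPPII, which acts at the Golgi, and TRAPPIII, which acts in early secretion and autophagy. Of 16 genes, 4 rose, among them the X-linked Trappc2 above, 4 fell and 8 were not called. The share called was 29.1% of all genes and 38.4% of autosomal genes averaging 10 CPM or more. In the core, Trappc6b read 44.7 and 46.9 CPM in mock and 65.7 and 64.3 CPM in BMH21 (log2 change 0.51 ± 0.06 SE, adjusted p = 3.93e-10 by edgeR). Its paralog Trappc6a was at 30.4 and 31.04 CPM and at 33.4 and 31.9 CPM (0.09, adjusted p = 0.455). Per kilobase Trappc6b thus went from 49.1% and 49.8% of the pair to 56.4% and 56.9%. Trappc2l, a core relative of sedlin, went from 14.8 and 15.97 CPM to 19.3 and 19.8 CPM (0.35, adjusted p = 0.00632), and Trappc5, a core subunit, from 11.2 and 12.8 CPM to 9.12 and 9.50 CPM (-0.36, adjusted p = 0.0323).

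Calls among the subunits that define the larger TRAPP forms also went both ways. Trappc14, which binds TRAPPII, fell from 48.3 and 48.6 CPM to 35.3 and 39.4 CPM (log2 change -0.37 ± 0.07 SE, adjusted p = 1.68e-05 by edgeR). Trappc9, of TRAPPII, fell from 138 and 139.7 CPM to 129 and 124 CPM (-0.13, adjusted p = 0.00739), while its partner Trappc10 was not called (-0.03). In TRAPPIII, Trappc12 fell from 131 and 134 CPM to 119 and 117 CPM (-0.16, adjusted p = 0.00125), Trappc8 rose from 182 and 180.2 CPM to 195 and 198 CPM (0.11, adjusted p = 0.00833), and Trappc11 (0.03) and Trappc13 (0.19) were not called. Trappc9 was not called without either mock library (-0.14 without replicate 1, -0.13 without replicate 2) or without BMH21 replicate 2 (-0.11), and Trappc8 not without mock replicate 2 (0.11) or under upper quartile scaling (0.07). Trappc2l was not called without mock replicate 1 (0.30), and Trappc5 not without mock replicate 2 (-0.26), BMH21 replicate 1 (-0.33) or BMH21 replicate 2 (-0.39) or in DESeq2 (-0.36).

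COG, the tether of retrograde vesicles within the Golgi whose loss in people disturbs glycosylation, had 5 of 8 subunit genes called, 2 higher and 3 lower, against 38.4% of autosomal genes averaging 10 CPM or more, as all 8 did. Cog7, a subunit of lobe B (Cog5 to Cog8), fell from 112 and 111 CPM in the mock libraries to 84.8 and 83.4 CPM in the BMH21 libraries (log2 change -0.41 ± 0.05 SE, adjusted p = 5.44e-11 by edgeR). The replicates lay close together and the groups far apart. Cog8, its neighbour in the lobe, fell from 108 and 109.99 CPM to 93.2 and 91.0 CPM (-0.24 ± 0.05 (SE), adjusted p = 1.68e-05); it shares 27.1% of its 50-base words with Pdf, a gene on the same strand that was not called (-0.14). Cog6, also of lobe B, rose from 566 and 557 CPM to 606 and 612 CPM (0.12 ± 0.02 (SE), adjusted p = 9.90e-05). Cog5 was not called (0.00).

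In lobe A (Cog1 to Cog4), Cog3 rose from 56.3 and 58.5 CPM to 71.7 and 68.9 CPM (log2 change 0.29 ± 0.06 SE, adjusted p = 3.13e-05 by edgeR). Cog1, which links the lobes, fell from 203 and 206 CPM to 187 and 177 CPM (-0.17 ± 0.04 (SE), adjusted p = 8.76e-05), and 1116 of its exonic bases overlap Fam104a on the other strand (-0.09, not called). Cog2 (-0.12) and Cog4 (-0.03) were not called. All 5 COG calls held under every alternative run. Levels differed widely for subunits of a single complex: Cog6 stood at 113 CPM per kb in mock and Cog2 at 6.93 CPM per kb, a 16.3-fold range.

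Few adaptor subunit genes were called: 3 of 24, among them the X-linked Ap1s2 above. The share called was 29.1% of all genes and 38.4% of autosomal genes averaging 10 CPM or more, a level that some adaptor genes did not reach. AP-2, the adaptor of clathrin endocytosis at the plasma membrane, and AP-4, which works at the trans-Golgi network without clathrin, had 0 of 3 and 0 of 4 genes called (edgeR), and 0 and 0 at an adjusted p under 0.05 in DESeq2; before adjustment, 0 and 1 (Ap4e1, 0.25) passed 0.05 in edgeR. Without mock replicate 2, Ap4e1 (0.36) and Ap4s1 (0.37) were called higher. Ap2b1, the most abundant gene of all members by CPM, read 915 and 903 CPM in mock and 911 and 917 CPM in BMH21 (log2 fold change 0.01 ± 0.02 (SE), adjusted p = 0.853). Ap1m1, the ubiquitous mu subunit of AP-1, read 482 and 489 CPM and then 482 and 472 CPM (-0.03 ± 0.03 (SE), adjusted p = 0.514). Its level per kilobase (153 CPM per kb in mock) was far above that of the other AP-1 subunits, the next being Ap1b1 at 22.9 CPM per kb.

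Epithelial and rarer adaptor forms were near the floor. Ap1m2, the epithelial mu subunit, was at 0.74 to 1.30 CPM over the 4 libraries, and Ap1g2 at 2.22 to 3.24 CPM; neither was called (edgeR adjusted p = 0.531 and 0.372). In AP-3, which sends cargo to lysosome-related organelles, Ap3m1 rose from 48.4 and 49.4 CPM to 53.8 and 56.0 CPM (log2 fold change 0.17, adjusted p = 0.0362). That call was lost without either mock library (0.15 without replicate 1, 0.18 without replicate 2), without BMH21 replicate 2 (0.14), in DESeq2 (0.17) and under upper quartile scaling (0.12). The large subunit genes Ap3d1 (0.01) and Ap3b1 (-0.04) were not called. The paralogs Ap1s3, Ap3b2 and Copz2 were not analysed here.

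AP-5, a late endosomal adaptor that works with the spastic paraplegia proteins SPG11 and SPG15, had the lowest value of any member. Ap5z1, its zeta subunit, fell from 13.2 and 11.7 CPM in mock to 7.61 and 8.42 CPM in BMH21 (log2 change -0.64 ± 0.13 SE, adjusted p = 1.05e-04 by edgeR), and kept its call under every alternative run. Ap5s1 read 7.32 and 7.68 CPM and then 6.31 and 5.69 CPM (-0.32 ± 0.16 (SE), adjusted p = 0.134). Ap5m1 (-0.17) and Ap5b1 (0.01) were not called. Spg11, a partner of AP-5, fell from 62.6 to 54.7 CPM (-0.19, adjusted p = 0.0108); it was named after its value was seen.

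The ER translocon held the largest autosomal rise. Sec61a2, a paralog of the pore subunit gene Sec61a1, read 37.9 and 34.8 CPM in mock and 56.6 and 62.8 CPM in BMH21 (log2 change 0.71 ± 0.07 SE, adjusted p = 8.49e-14 by edgeR; 0.63 to 0.79 with 1 library left out). Sec61a1 was at 289 and 290.5 CPM and at 278 and 288 CPM (-0.03 ± 0.03 (SE), adjusted p = 0.469), and was called lower under upper quartile scaling (-0.08). Per kilobase Sec61a2 made up 16.2% and 15.0% of the pair in mock and 23.1% and 24.3% in BMH21. On the other strand 909 exonic bases of Sec61a2 overlap Nudt5, which rose by 0.31 from a lower level (16.6 to 20.6 CPM). Sec62, which with Sec63 helps small and weakly targeted proteins through the pore, rose from 59.6 and 60.3 CPM to 77.8 and 74.0 CPM (0.34 ± 0.06 (SE), adjusted p = 9.02e-07), while Sec63 was not called (-0.01). Sec61b, a small pore subunit, fell from 7.08 and 7.30 CPM to 5.13 and 5.45 CPM (-0.44, adjusted p = 0.0385). This call was lost with any 1 library left out (-0.49 to -0.40), in DESeq2 (-0.44) and with the replicate block (-0.44), and the gene shares 31.5% of its words with near-identical copies. Sec61g was not called (0.09).

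Sec11a, a catalytic subunit of signal peptidase, which trims proteins as they enter the ER, rose from 57.4 and 52.4 CPM to 65.2 and 64.2 CPM (log2 fold change 0.23, edgeR adjusted p = 0.00149), but was not called without mock replicate 2 (0.17). Its alternative Sec11c was at 2.00 to 2.66 CPM and not called (0.19). Of the Sec22 genes, Sec22b, the SNARE of ER to Golgi fusion, was not called (-0.09). Sec22a rose from 95.7 and 92.3 CPM to 101 and 107 CPM (0.14, adjusted p = 0.0140), and Sec22c from 7.91 and 8.26 CPM to 11.2 and 11.0 CPM (0.45, adjusted p = 0.00752). Sec22a was not called without mock replicate 2 (0.12) or BMH21 replicate 2 (0.10), in DESeq2 (0.14) or under upper quartile scaling (0.10), and Sec22c not without mock replicate 1 (0.42). Sec14l1 fell from 237 and 252 CPM to 222 and 221 CPM (-0.14, adjusted p = 4.25e-04) and was not called without mock replicate 2 (-0.10), and Sec14l2 (-0.01), Sec14l3 (-0.15) and Sec1 (0.11) were not called.

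**Figure D3:**
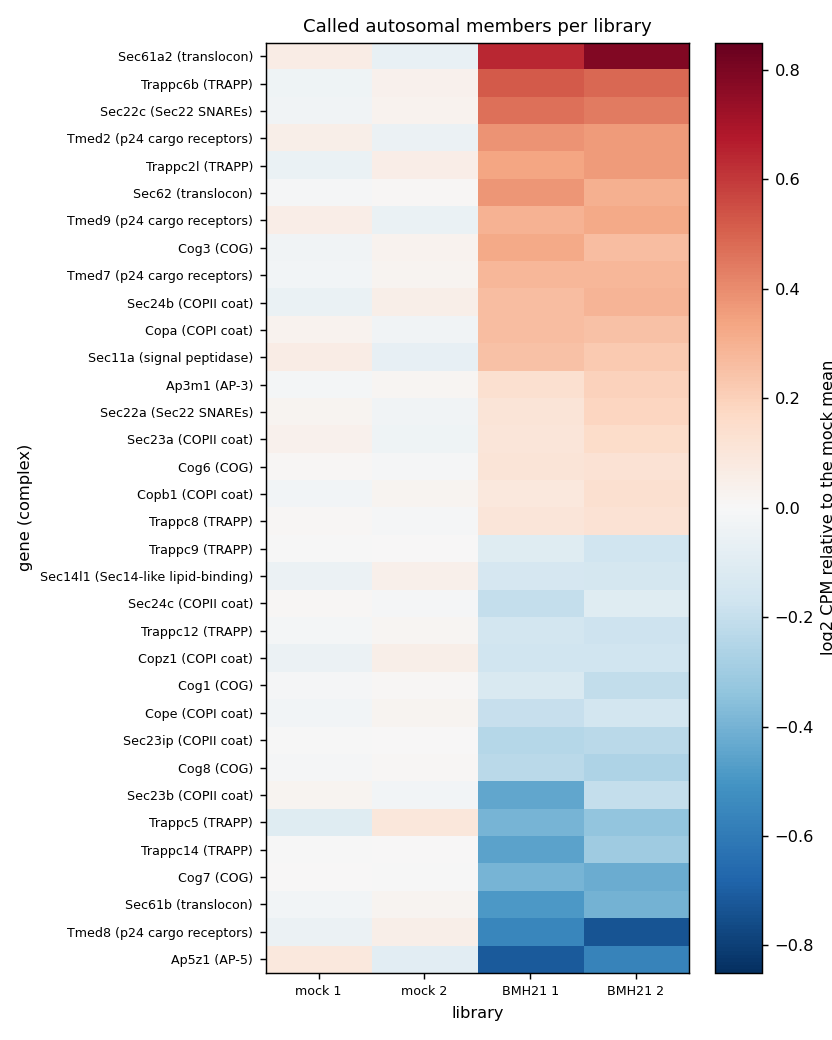
Log2 CPM of the 34 called autosomal members in each library, relative to the mean of the mock libraries, ordered by fold change. Red is above and blue below the mock mean. The mock columns are pale in all rows. In both BMH21 columns the 18 higher genes are on the red side and the 16 lower genes on the blue side, some of them as pale as mock cells. The rows were chosen by their calls, so this contrast was set in advance.

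Ratios of the counts of paralogs need no scaling between libraries. The BMH21 libraries lay apart from the mock libraries for 11 of 13 ratios computed, all but Ap3m1 to Ap3m2 and Ap3s1 to Ap3s2. Of single genes, 60.9% lay apart in CPM, but that is a different measure, and ratios of other gene pairs were not computed. Further, 3 of the ratios are built from the same 3 Sec24 genes, and with 2 libraries a group the count has no test of its own. Outside the Ap1s pair the widest shift was that of Sec61a1 to Sec61a2, which fell by 0.75 on the log2 scale, from 2.93 and 3.06 in mock to 2.30 and 2.20 in BMH21. The ratio of Sec23a to Sec23b went from 3.24 and 3.22 to 3.77 and 3.59, and that of Trappc6a to Trappc6b from -0.56 and -0.59 to -0.98 and -1.01. Copg1 to Copg2, alternative gamma subunits of COPI, moved from 0.12 and 0.15 to 0.23 and 0.18. The Sec31 and Ap1m ratios rest on a weak partner and vary widely within a group.

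**Figure D4:**
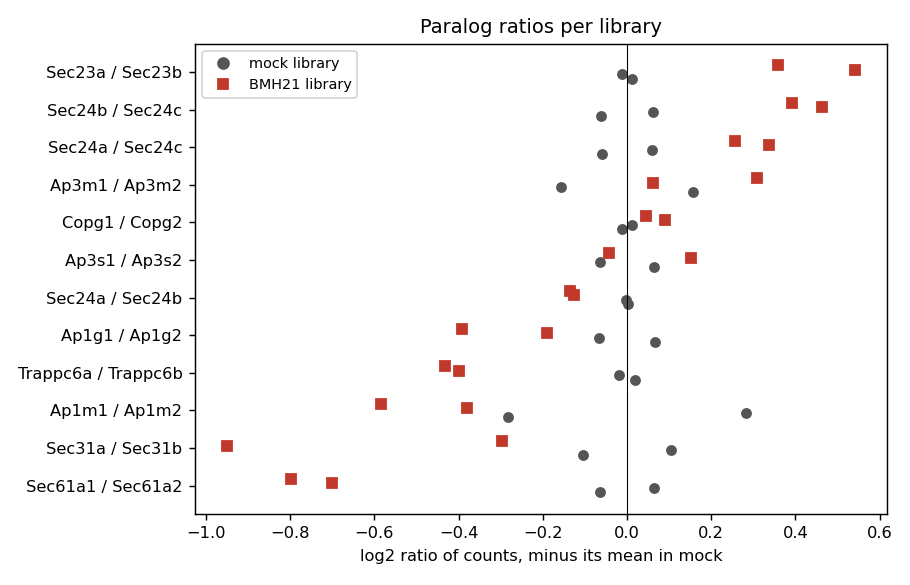
Log2 ratio of the counts of paralogous members in each library, minus its mean in the mock libraries, for 12 ratios (the Ap1s pair is left out). Circles are mock and squares BMH21 libraries. The Sec23, Sec24b to Sec24c, Trappc6, Sec61a and Ap1m squares lie at least 0.3 from the mock mean. The Ap3m and Ap3s squares overlap the range of the mock circles.

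Members that rose had transcripts of lower GC content than members that fell. The median GC content of the longest annotated transcript was 44.8% over the 18 autosomal members that rose, 53.4% over the 16 that fell and 50.2% over the 55 not called. Over all autosomal genes the medians were 46.9%, 50.4% and 50.2%. Across the 89 autosomal members the Spearman correlation of GC content with the log2 fold change was -0.328, and across 13379 autosomal genes it was -0.0727. Genes are not independent replicates and share the same 4 libraries, so these are descriptions, and the part of GC content in the fold changes was not tested. Gene span showed no such relation, with correlations of 0.0838 over the members and 0.00553 over all autosomal genes. The median span was 36.3 kb for members that rose and 23.9 kb for those that fell.

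**Figure D5:**
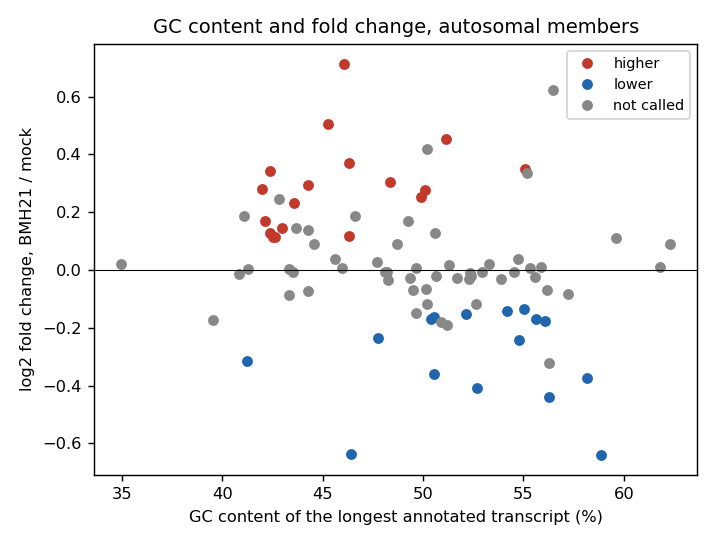
GC content of the longest annotated transcript (percent) against the log2 fold change of BMH21 over mock for the 89 autosomal members, 1 point per gene, coloured by call. Points called higher cluster at 42% to 51% GC with 1 at 55.1%, and most points called lower lie from 50% upward.

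Genes that work with these complexes but fall outside the naming rule also went both ways. Each list is read against the 29.1% called among all genes. Many of the listed genes average 10 CPM or more, and of autosomal genes at that level 38.4% were called. Of 11 tested COPII assembly and ER exit partners 2 rose and 0 fell; both are cargo receptors for bulky cargo such as collagen, Mia3 (TANGO1), from 162 to 195 CPM (log2 change 0.27 ± 0.04 SE, adjusted p = 5.10e-09 by edgeR), and Mia2, from 14.2 to 21.5 CPM (0.60 ± 0.10 (SE), adjusted p = 2.59e-06). At an unadjusted p under 0.05, 1 gene was lower, the calcium sensor gene Pef1 (-0.11; edgeR adjusted p = 0.0884); it was named after its value was seen. Of 12 partners of COPI and its GTPase Arf, 4 rose and 2 fell, among them the Arf activator gene Arfgef1 (0.30) and the cis-Golgi Arf activator gene Gbf1 (-0.10). Of 22 clathrin and adaptor partners 2 rose and 4 fell, including clathrin heavy chain Cltc (-0.11), Cltb (1.63, from 0.814 CPM in mock) and Necap1 (-0.62).

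Among 31 other tethers 9 rose and 6 fell. Vps54, a subunit of the GARP complex that tethers endosomal vesicles at the trans-Golgi and whose mutation causes the wobbler phenotype with defective spermatids in mice, rose from 15.9 ± 0.636 to 35.8 ± 2.23 CPM (mean ± SD of 2 libraries; log2 change 1.18 ± 0.09 SE, adjusted p = 9.14e-18 by edgeR), more than any autosomal coat or tether gene chosen by name. Of the other GARP subunit genes, Vps53 (-0.35) and Vps52 (-0.15) fell and Vps51 (0.02) was not called; they were named after their values were seen. The golgin genes Gcc1 (0.38) and Golgb1 (0.13) rose. Of 18 SNAREs and regulators 3 rose and 3 fell (Gosr2 0.21, Napa 0.22, Scfd1 -0.29). Of 18 cargo receptors 5 rose and 1 fell, with the X-linked Bcap31 at 5.11, Mcfd2 at 0.38 and Lman2l at -0.61. Of 30 translocon partners 7 rose and 2 fell. The X-linked Ssr4 went from 0.0358 to 9.08 CPM. Like Trappc2 it entered the test through BMH21, so its rise was set in advance by the filter. Of X-linked genes tested 73.5% were called, so the share over all genes is no like background for Ssr4 and Bcap31. Ssr3, like Ssr4 a subunit of the translocon-associated protein complex, rose from 38.5 ± 0.302 to 75.1 ± 1.33 CPM (mean ± SD of 2 libraries). Its log2 change was 0.96 ± 0.06 SE (adjusted p = 1.37e-21 by edgeR). Spcs3, a signal peptidase subunit like Sec11a, rose by 0.33.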

How the data were processed

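The authors deposited 1 table of raw read counts per protein-coding gene in 4 libraries; fastp, STAR, SAMtools, featureCounts, DESeq2 and mm10 appear, per the submitters' processing notes, without versions or settings. The size-factor-normalized values (signal), and the log2 fold changes, p-values and Wald score that the authors deposited beside them, entered no test. Counts were tested in R 4.3.3 with edgeR 4.0.16: filterByExpr (minimum count 10), TMM scaling, quasi-likelihood test with group alone, Benjamini-Hochberg adjustment over 13793 genes. The SE is the log2 fold change divided by the square root of F, an approximation. DESeq2 1.42.0 was an alternative. CPM use TMM-scaled library sizes, and n is 2 per group throughout. Libraries held 30964370 to 41548269 counts; the common biological coefficient of variation was 4.09%.

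Table positions equalled those of GENCODE M21 (GRCm38) for 1 of 92 members, though the chromosome was the same for 92; coordinates, exon lengths, GC and overlaps are from GENCODE M21 by gene ID. A 50-base word is shared if it occurs in a transcript of another gene. Promoters are from RefSeq (GRCm38.p6).

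Members and lists were chosen with earlier results of these data known. Named genes are the called members, X-linked members, the most abundant member of each complex, listed paralogs and up to 3 called genes per partner list by smallest p; other genes were named after their values were seen, and 1 gene that the rule names is not reported here. The code was tested on simulated counts. Alternatives were other scalings, DESeq2, other filters, the replicate block and leaving out each library. The numbers of the replicates share no stated origin between groups.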

Additional observations from a re-analysis of the deposited data

How the results depend on the processing

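The counts of members called higher ranged from 14 (upper quartile scaling) to 20 and those called lower from 9 to 20 over all alternatives. Leaving out 1 library gave 16 to 19 higher and 9 to 13 lower; the 9 came without mock replicate 2. For the median log2 fold change of members the value, 0.00477, was -0.0407 under upper quartile scaling and -0.000994 to 0.0205 with 1 library left out. DESeq2 gave 17 higher and 12 lower. Of the 36 called members, 20 kept the call in every alternative in which they were tested and 16 lost it with at least 1 library left out; no called value changed sign. In a fit with 1 library left out, the lone library of a group is assumed to vary like the others. Counting autosomal members alone (18 and 16) or members of at least 10 CPM alone (18 and 15) was chosen after seeing the data. Replicate numbers pair nothing by design: same-numbered libraries had a correlation of deviations of 0.0125 over 13793 genes, and the replicate block gave 20 higher and 14 lower members. For all genes called higher the count was 2282, and 1805 under upper quartile scaling; for all genes called lower it was 1731 and 2480. With 2 libraries per group, small changes in genes under about 10 CPM could hardly be called.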
